A study of Mus musculus with 4 samples.

Results

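Type 1 conventional dendritic cells (cDC1) were picked out of the CD45-positive cells of MB49 tumours by their own transcripts. A member had at least 2 UMIs (unique molecular identifiers, 1 per captured mRNA molecule) of Xcr1 and Clec9a together, less than 0.3% of its UMIs from the complement genes C1qa, C1qb and C1qc, which mark macrophages, and 0 UMIs of the T cell genes Cd3e, Cd3d and Cd3g. Cells had to have 500 or more UMIs, 250 or more genes and no more than 25% of UMIs from mitochondrial genes. Under these limits 194 of 9974 CD45-positive cells were members, out of 19375 kept cells in all 4 libraries. They were 173 cells of the male library and 21 cells of the female library.

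MB49 cells come from a bladder tumour of a male mouse, and tumours labelled male and female were compared here. Each host sex gave 1 library of live CD45-positive cells and 1 of live CD45-negative cells, captured in microwells with the BD Rhapsody system; CD45 is the pan-leukocyte protein encoded by Ptprc. No genotype, strain, age or treatment beyond the tumour is stated in the labels, and they do not say how many mice were in a library. With 1 library per sex there is no replicate, so no test between the sexes was made, and every interval below is a 95% interval that covers counting error only.

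cDC1 are a lineage of conventional dendritic cells that take up material from dead cells and present it on MHC class I to CD8 T cells, a route called cross-presentation. Their development depends on the transcription factors Irf8 and Batf3 and on the cytokine receptor Flt3. Clec9a binds actin exposed by dead cells, and Xcr1 is the receptor for the chemokine Xcl1, which NK cells and CD8 T cells release.

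The promoters of the pair of genes that define the members are shown first, as 250 bases before to 50 bases after the transcript start (RefSeq, GRCm38.p6). In mm10, Xcr1 lies at chr9:123852315-123862029 on the minus strand and Clec9a at chr6:129408862-129424763 on the plus strand.
Xcr1 (chr9:123861980-123862279, minus strand): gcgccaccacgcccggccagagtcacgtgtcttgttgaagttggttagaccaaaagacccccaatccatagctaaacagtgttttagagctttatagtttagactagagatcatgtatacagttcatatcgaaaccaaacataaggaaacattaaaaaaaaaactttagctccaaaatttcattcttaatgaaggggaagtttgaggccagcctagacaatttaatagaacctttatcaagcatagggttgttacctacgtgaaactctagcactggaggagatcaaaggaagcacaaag
Clec9a (chr6:129408612-129408911, plus strand): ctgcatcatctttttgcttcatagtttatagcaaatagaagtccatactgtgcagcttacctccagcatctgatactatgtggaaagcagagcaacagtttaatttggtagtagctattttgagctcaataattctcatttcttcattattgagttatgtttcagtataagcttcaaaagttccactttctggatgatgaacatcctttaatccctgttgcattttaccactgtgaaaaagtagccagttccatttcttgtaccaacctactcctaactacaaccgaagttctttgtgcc

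Neither of these windows held TGANTCA, the letters that AP-1 and BATF-type factors bind, or a pair of GAAA stretches with any 2 bases between them, a spacing that interferon regulatory factors bind. Both strands were searched, and an absent match says only that these letters are not in the window. The same search covered 26 genes, made up of Xcr1, Clec9a, 8 further genes known from cDC1 and the 20 genes that led the comparison of cDC1 with other cells (4 genes are in both sets), of which 21 had a promoter in the table. TGANTCA was in 3 of these 21 genes and in 7.81% of all 32851 promoters, and the spaced GAAA pair was in 2 of the 21 and in 3.44% of all. A gene counted if any of its promoters matched, while the shares over all are per promoter, so they are not like for like. The Mctp1 and Ncoa7 matches lie at transcript starts inside these genes, which span chr13:76384535-77031810 and chr10:30628999-30803326 in mm10. The matching stretches follow, with the motif in capitals.
Adam19 (chr11:46055843-46055869, plus strand): gtccttcaccTGAGTCAgcgatgctcc
Mctp1 (chr13:76579521-76579547, plus strand): ctttgagagtTGAGTCAtatcctgtgg
Plet1 (chr9:50494371-50494397, plus strand): ggaggctgggTGATTCAtccaggtaat
Ifi205 (chr1:174031870-174031899, minus strand): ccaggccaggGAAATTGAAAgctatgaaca
Ifi205 (chr1:174031713-174031742, minus strand): ataccccattTTTCACTTTCtcagttactg
Ncoa7 (chr10:30655841-30655870, minus strand): ctccttgaggGAAACAGAAActcaatcttg

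The gated cells carried the other genes of the cell type, more fully in the male library. Each member was scored for 8 further genes known from cDC1: Cadm1, Wdfy4, Irf8, Naaa, Ifi205, Batf3, Flt3 and Itgae. The median member had a UMI in 7 of the 8 genes in the male library and in 5 of the 8 in the female library. At least 4 of the 8 were detected in 158 of 173 male members, 91.3% (86.1 to 95.1), and in 11 of 21 female members, 52.4% (29.8 to 74.3). The female members fell into separate sets, with 11 cells at 5 or more genes, 10 cells at 3 or fewer and none at 4.

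**Figure D1:**
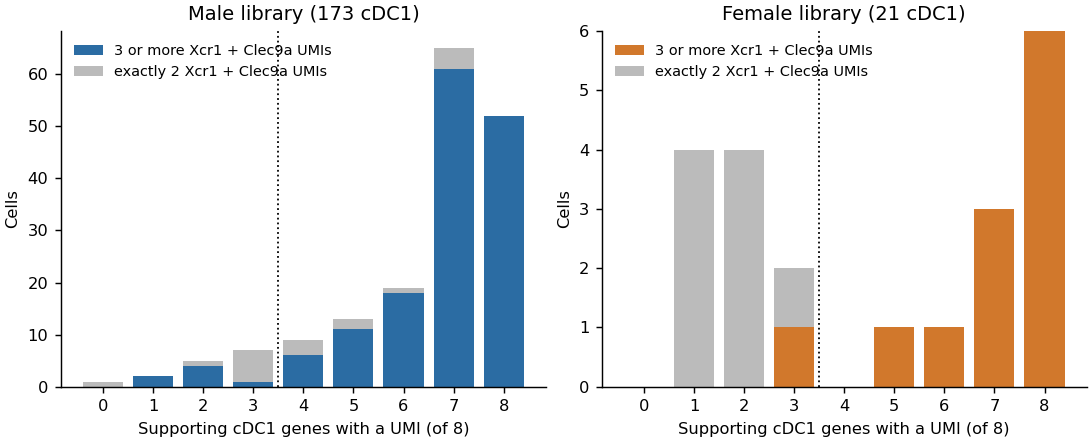
Number of cDC1 (y axis) by how many of 8 supporting cDC1 genes had a UMI in the cell (x axis), in the male library (left) and the female library (right, own y scale). Grey marks cells with exactly 2 Xcr1 and Clec9a UMIs, the dotted line the limit of 4 genes: 158 of 173 male cells and 11 of 21 female cells are right of it, and the 9 grey female cells are all left of it.

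The split followed the number of Xcr1 and Clec9a UMIs. With exactly 2 such UMIs there were 18 male members, of which 10 had at least 4 supporting genes, and 9 female members, of which 0 had. With 3 or more UMIs there were 155 male members, 148 of them with at least 4 supporting genes, and 12 female members, 11 of them with at least 4. Just outside the rule, with exactly 1 such UMI, were 69 male cells and 45 female cells, of which 24 and 11 had at least 4 supporting genes. Outside it for C1q at or above 0.3% were 88 male cells and 29 female cells, of which 63 and 13 had at least 4 supporting genes. The supporting score was chosen after these values were seen, and it is not exclusive to cDC1: at least 4 of the 8 genes were also detected in 39.2% and 23.5% of the macrophages of the male and female libraries, and in 1.75% and 2.60% of their T cells. The shares were 37.8% and 30.6% in the mature dendritic cell gate and 32.8% and 24.7% in the type 2 dendritic cell gate, both described below. Values below are given for all members and, where the sexes are compared, also for the 158 male and 11 female members with at least 4 supporting genes, called supported members.

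cDC1 made up 3.22% of the kept CD45-positive cells of the male library (2.76 to 3.72) and 0.457% of those of the female library (0.283 to 0.698), a male:female ratio of 7.04 (4.46 to 11.7). Supported members made up 2.94% of male cells (2.50 to 3.42) and 0.239% of female cells (0.120 to 0.428), a ratio of 12.3 (6.67 to 25.1). The other dendritic cell gates differed less between the libraries. Mature dendritic cells, gated by at least 4 UMIs of Ccr7 and Fscn1 together, were 5.02% of male and 2.63% of female cells, a ratio of 1.91 (1.53 to 2.38). Type 2 conventional dendritic cells (cDC2), gated by at least 2 UMIs of Cd209a, were 2.32% of male and 2.02% of female cells, a ratio of 1.15 (0.871 to 1.52). Both of these gates had the same C1q and Cd3 limits and left out cDC1. The Ccr7 and Fscn1 gate is not specific to dendritic cells: 168 of 5496 male and 217 of 3905 female CD45-negative cells also passed it, and 0 of either passed the Cd209a gate. Of all cells in these 3 gates, cDC1 were 30.5% in the male library (26.7 to 34.4) and 8.94% in the female library (5.62 to 13.3).

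Cells outside the cDC1 gate held 34.2% of the male and 73.0% of the female Xcr1 UMIs of kept cells. For Clec9a these shares were 40.0% and 73.1%. Macrophages had a Clec9a UMI in 66 of 1305 male and 19 of 923 female cells. Xcr1 and Clec9a UMIs were also found in T cells, gated by at least 2 Cd3 UMIs and the same C1q limit. At least 2 UMIs of the pair were in 12 of 859 male T cells, 1.40% (0.724 to 2.43), and 7 of 461 female T cells, 1.52% (0.613 to 3.10). The source of these UMIs was not tested. Median depth was 10072 UMIs in male and 9420 UMIs in female cDC1, against 2587 UMIs in male and 2977 UMIs in female T cells. The male cDC1 share was above this T cell share and the female cDC1 share was below it, but the first is a share of all kept cells and the second of T cells. Which genes passed differed: Clec9a was in 160 of 173 male and 18 of 21 female cDC1, against 2 of the 12 male and 0 of the 7 female T cells that passed. Both groups were picked by the UMIs of this pair, so the difference is a description and no check on the members. With the supporting genes added, 2 male T cells passed, 0.233% (0.0282 to 0.839), and 0 female T cells, which allows a share of up to 0.797%. Xcr1 was the more frequent of the pair in T cells: those with an Xcr1 UMI were 5.47% for the male library and 8.03% for the female, and those with a Clec9a UMI 0.931% and 0.217%. The deposited cells are numbered anew in each library, so barcodes shared between libraries could not be counted. After every cell was thinned to 1000 UMIs, which left out 541 male and 483 female cells, the rule found 46 of 4838 male cells, 0.951% (0.697 to 1.27), and 4 of 4112 female cells, 0.0973% (0.0265 to 0.249).

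The labels of the libraries held in the members. Ddx3y and Eif2s3y, on the Y chromosome, had 231 and 125 UMIs in male cDC1 and 0 in female cDC1, and Xist, the RNA of the inactive X chromosome, had 0 UMIs in male cDC1 and 33 in female cDC1. Ptprc was at 593 CPM (UMIs of the gene scaled to a total of 1000000 UMIs) in male and 808 CPM in female cDC1. C1q genes, capped by the rule, were together at 499 CPM in male and 1141 CPM in female cDC1. T cells of the same libraries, gated with the same C1q limit, were at 526 and 1232 CPM. Macrophages, gated by a C1q minimum above that limit, were at 13422 and 13271 CPM. The gates themselves put macrophages above cDC1 and T cells in C1q, so that gap is no check on the members. The male members held 1788453 UMIs in all and the female members 221647, so that 3 UMIs, the limit that a count of 0 allows, were 1.68 CPM in male and 13.5 CPM in female cDC1. The 5 deepest cells held 5.78% of the male and 41.3% of the female UMIs.

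Beyond the genes of the rule, cDC1 of both libraries shared a set of high genes. Levels were summed over the members and set against all other kept cells of the same library, as a description, since the members had been chosen by their counts. Of 1844 genes with at least 100 CPM in cDC1 or other cells and at least 30 UMIs, 105 (5.69%) were at least 2-fold higher in cDC1 in both libraries and 196 (10.6%) at least 2-fold lower. Gene lists were counted over genes with at least 30 UMIs in each library and no CPM minimum, for which the shares over 11325 genes were 5.09% higher and 5.82% lower in both libraries. Of 13 measured genes known from cDC1, other than the genes of the rule, 11 were at least 2-fold higher in both libraries. Among the 11, Tlr3 was detected in only 3 of 21 female members. Its female interval, given below, also takes in levels under those of other cells. The 2 of the 13 that were not were Rab7b and Cd8a. Rab7b, a vesicle GTPase, was at 2.20-fold in the male and 1.62-fold in the female library. Cd8a, which marks cDC1 of lymphoid organs in mice, was at 0.795-fold and 0.769-fold.

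Transcription factors and adhesion molecules of the lineage were among the higher genes. Irf8 was at 999 CPM in male cDC1 against 274 CPM in other male cells, and at 884 CPM in female cDC1 against 276 CPM in other female cells. Batf3 was 2.71-fold higher in male and 2.63-fold higher in female cDC1 than in other cells, at 80.0 and 76.7 CPM. Cadm1, an adhesion molecule of cDC1, was 3.92-fold higher than in other male cells and 10.9-fold higher than in other female cells. Its level was 581 CPM in male and 316 CPM in female cDC1, against 148 and 28.9 CPM in other cells of the male and female libraries. Macrophages were at 222 CPM of Cadm1 for the male library and 37.3 CPM for the female. Wdfy4, required for cross-presentation by cDC1, was 9.61-fold (9.06 to 10.2) and 7.87-fold (6.50 to 9.45) higher, with a median of 9 UMIs per male and 3 UMIs per female member. Itgae, the integrin chain CD103, was 15.8-fold and 24.0-fold higher. Flt3 was 15.8-fold and 19.0-fold higher.

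Ranked by the smaller of the folds in the male and female libraries, the 20 leading genes began with Btla, an inhibitory receptor of the immunoglobulin family. Btla was at 389 CPM in male cDC1 against 14.9 CPM in other male cells, 26.2-fold (23.4 to 29.3), and at 424 CPM in female cDC1 against 7.13 CPM in other female cells, 59.5-fold (46.5 to 75.5). It was detected in 148 of 173 male and 11 of 21 female members. Hepacam2, an adhesion molecule of the same family, followed at 16.4-fold and 20.7-fold, and then Itgae, Flt3, the C2-domain gene Mctp1 and the septin gene Sept3. Further down were Il12b, Bcl2l14, Ncoa7, Tbc1d8, the surface protein gene Plet1, Wdfy4, Cst3, Ifi205, Cd24a, the protease gene Adam19, the lysosomal thioesterase gene Ppt1, the creatine kinase gene Ckb, Sept6 and Ly75. Il12b held its place through few cells, 20 male and 2 female members, and is described with the Ccr7-high cells. Cst3, the protease inhibitor cystatin C, was in all 173 male and all 21 female members, with 5, 312 and 729 UMIs in the lowest, median and highest male cell and 4, 223 and 551 UMIs in the lowest, median and highest female cell.

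Against the closest gates the same genes sorted differently. Naaa, a lysosomal amidase, was at 1905.0 CPM in male and 1123 CPM in female cDC1, against 561 and 438 CPM in cDC2, 413 and 303 CPM in macrophages and 239.7 and 153 CPM in mature dendritic cells of the male and female libraries. Ppt1 was at 1690.3 and 1101 CPM in male and female cDC1, against 114 and 91.7 CPM in cDC2. Ly75, the uptake receptor DEC-205, was at 154 and 149 CPM in male and female cDC1, below the 324 and 253 CPM of mature dendritic cells and above the 9.35 and 10.4 CPM of cDC2. Batf3 did not separate cDC1 from mature dendritic cells, at 80.0 and 76.7 CPM in cDC1 and 104 and 66.4 CPM in mature dendritic cells. Irf4, a factor of cDC2, was at 9.51 and 4.51 CPM in male and female cDC1, against 67.8 and 72.7 CPM in cDC2.

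**Figure D2:**
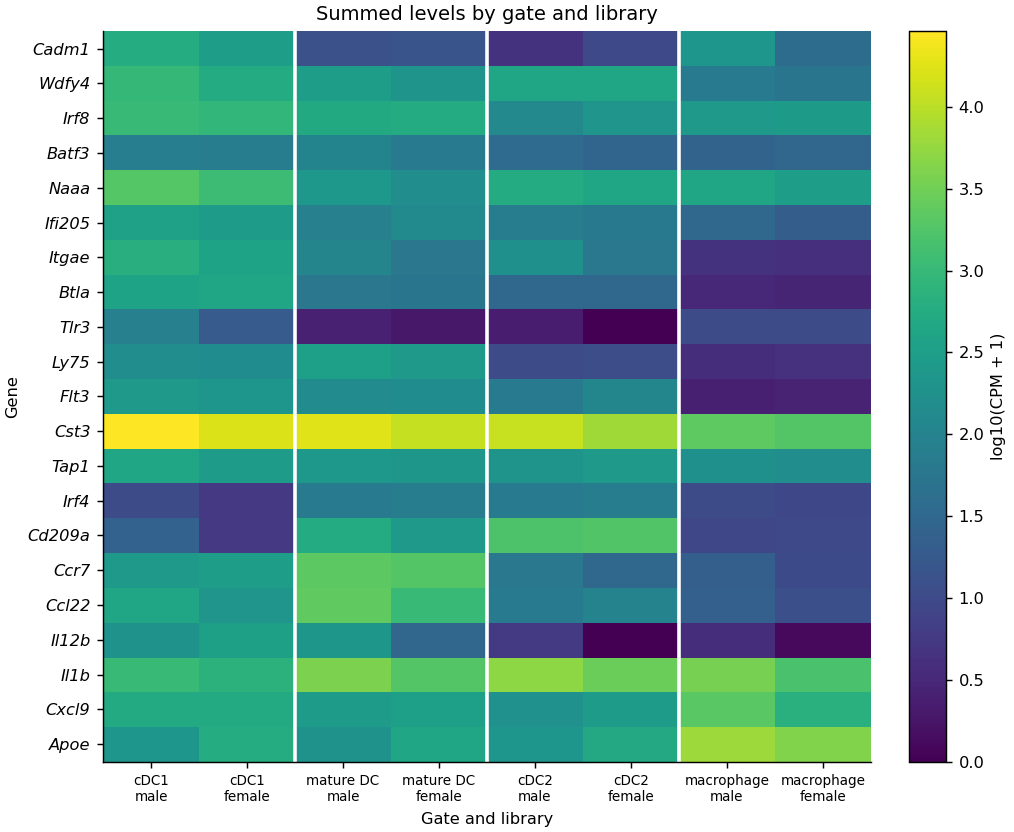
Levels of 21 genes (rows) as log10(CPM + 1) of UMIs summed over the cells of each gate and library (columns, male left of female in each gate). cDC1 stand out in Cadm1, Naaa, Itgae and Btla, and those of the male library also in Tlr3. They share Ly75 with mature dendritic cells, and also Il12b, which was in only 20 male and 2 female members. They are low in Irf4, Cd209a and Apoe.

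A minority of the genes that load antigen were past 2-fold in cDC1. Of 16 genes of the MHC class I pathway, 3 were at least 2-fold higher than in other cells in both libraries (background 5.09%). These were the transporter gene Tap2, at 2.03-fold and 2.14-fold, the immunoproteasome gene Psmb9, at 3.78-fold and 2.996-fold, and the proteasome activator gene Psme1, at 2.18-fold and 2.07-fold in the male and female libraries. The class I chains were below other cells by less than 2-fold: H2-K1 was 0.657-fold and 0.776-fold and B2m 0.631-fold and 0.817-fold of other cells. Reads of H2-K1 and H2-D1 may be split between near-identical copies. Of 13 genes of the MHC class II pathway, 4 were at least 2-fold higher in both libraries (background 5.09%) and 1 lower (background 5.82%). The 4 were Cst3, H2-Oa, H2-Ob and the class II transactivator Ciita, at 2.34-fold and 3.13-fold. The lower gene was Ctss, a protease that cleaves the invariant chain, at 1233 CPM in male and 2396 CPM in female cDC1, against 3945 and 5536 CPM in other cells. H2-Ab1 was at 16273 and 14487 CPM in male and female cDC1, between macrophages, at 10858 and 9605 CPM, and cDC2, at 18363 and 17471 CPM.

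Among sensors, Havcr2 (TIM-3), a receptor on cDC1 for phosphatidylserine and other ligands, was 2.96-fold higher than in other cells in male and 4.03-fold higher in female cDC1. Tlr3, the endosomal sensor of double-stranded RNA, was 12.1-fold higher in male cDC1 (9.87 to 14.8), while the 4 UMIs in female cDC1 gave 2.98-fold (0.805 to 7.74). Of 16 type I interferon-stimulated genes 0 were at least 2-fold higher (background 5.09%) and 7 at least 2-fold lower (background 5.82%) than in other cells in both libraries. Of 11 chemokine genes, 1 was at least 2-fold higher in both libraries (background 5.09%), Ccl22, and 5 were at least 2-fold lower (background 5.82%). Ccl22 was in 43 male and 3 female members, and 1 cell held 38.7% of its male and 1 cell 57.4% of its female UMIs. Cxcl9, a ligand of Cxcr3, a chemokine receptor of T cells, was at 530.1 CPM in male and 541 CPM in female cDC1, against 2051 and 667 CPM in macrophages. Xcl1, the ligand of Xcr1, was nearly absent from cDC1, with 10 UMIs in male and 0 UMIs in female members, and at 34.4 and 23.7 CPM in the other cells of the male and female libraries.

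Markers of other cell types were also detected in the members, and their sums differed between the sexes in both directions. All 10 macrophage markers were at least 2-fold lower than in other cells in both libraries (background 5.82%). Their summed level was 1045 CPM in male cDC1 against 9596 CPM in other male cells, and 2878 CPM in female cDC1 against 9024 CPM in other female cells. In supported members the sum was 938 CPM for the male library and 1535 CPM for the female. No macrophage marker was at 0 in either library. The 9 NK cell markers summed to 189 CPM in male and 898 CPM in female cDC1, against 634 and 664 CPM in other male and female cells, and to 190.2 and 211 CPM in supported members. The 8 plasmacytoid dendritic cell markers summed to 165 CPM in male and 343 CPM in female cDC1, against 152 and 178 CPM in other male and female cells. Of these 8, 6 were at least 2-fold higher in cDC1 than in other cells in both libraries (background 5.09%). In supported members they summed to 63.2 CPM for the male library and 68.2 CPM for the female. Single male members held 53, 56 and 71 UMIs of the plasmacytoid markers, and single female members 13 and 43 UMIs. These cells each had 3 or fewer supporting genes. The T cell markers summed to 63.2 CPM in male and 176 CPM in female cDC1, and to 46.5 and 40.9 CPM in supported members. The tumour and stroma markers ran the other way, at 122 CPM in male and 27.1 CPM in female cDC1, against 420 and 383 CPM in other male and female cells, and 7 of the 10 were at 0 in female cDC1. Of 3 such genes with at least 20 UMIs, 3 were at least 2-fold higher in male cDC1 over all members (background 9.76%) and 2 in supported members (background 11.2%, and 7.78% toward female). At least 5 UMIs of the macrophage markers were in 113 of 173 male and 20 of 21 female members, among them 104 of 158 male and 11 of 11 female supported members. At least 5 UMIs of the NK markers were in 16 male and 4 female members, and of the plasmacytoid markers in 4 male and 3 female members. For the tumour and stroma markers this held in 1 male and 0 female members.

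With a minimum of 100 CPM, more genes were past 2-fold toward female cDC1 than toward male cDC1. Of 1918 genes with at least 30 UMIs over both libraries and 100 CPM or more in the higher library, 32 (1.67%) were at least 2-fold higher in male cDC1 and 171 (8.92%) at least 2-fold higher in female cDC1, and the median log2 male:female ratio was -0.05. The balance depends on the filter: with no CPM minimum the counts were 544 toward male and 503 toward female cDC1, and after thinning to 1000 UMIs per cell 26 and 11. In supported members 41 of 1941 genes (2.11%) were 2-fold or more higher for the male and 118 (6.08%) in the female library. Of the 171 female genes, 107 were also at least 2-fold higher in female supported members and 31 had 50% or more of their female UMIs in 1 cell. In all other cells 131 of the 171, or 76.6%, were higher in the female library, against 46.3% of all 1918 genes, but 18, or 10.5%, were 2-fold higher there, against 1.15% of all. Macrophages of the female library had a higher level than its cDC1 for 103 of the 171, or 60.2%, against 35.7% of all 1918 genes. Of the 32 male genes, 15 were also at least 2-fold higher in male supported members and 0 had 50% or more of their male UMIs in 1 cell.

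Single female cells carried many of the 31 genes. One cell, with 1 of 8 supporting genes and 79 UMIs of the NK markers, held 50% or more of the female UMIs of 12 of them. Gzmc, a granzyme of cytotoxic lymphocytes, had 361 of its 366 female UMIs there, and the perforin gene Prf1 40 of 43. Granzyme genes Gzmd, Gzme, Gzmf and Gzmg had, among female members, UMIs in that cell only. They are near-identical copies among which reads may be split. Another cell, the deepest, had all 8 supporting genes and 304 proliferation UMIs and held 9 of the 31 genes, among them the immediate early genes Nr4a1, Nr4a3 and Egr3.

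The 12 largest ratios toward female cDC1, among genes with less than 50% of their female UMIs in 1 cell, included several genes known from macrophages. Arg1, the arginine-degrading enzyme, was at 105 CPM in male and 979 CPM in female cDC1, a log2 male:female ratio of -3.23, and was detected in 33 male and 19 female members. One male cell held 50.8% of the male Arg1 UMIs. In other cells of the male and female libraries Arg1 was at 488 and 2891 CPM. In supported members Arg1 was at 99.6 CPM for the male library and 205 CPM for the female, a log2 ratio of -1.04. Mrc1, the mannose receptor, was at -2.75 over all members and at -0.83 in supported members. Chil3, a chitinase-like protein, was at -3.16 and -1.28, the scavenger receptor gene Msr1 at -2.67 and -1.29, and the chemokine gene Ccl24 at -2.44 and -0.76 in all and in supported members. Ctsd, Mmp14, Pecam1, Tgm2, Cdh1 and Inhba were also among them. Cdh1 and Mmp14 turned toward male cDC1, at 0.68 and 0.73, with the C1q limit at 0.1%.

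Inhba had the largest ratio of the 12 in supported members. Inhba, the activin A subunit, was at 16.8 CPM in male and 144 CPM in female cDC1 (log2 -3.11), and at 11.3 and 123 CPM in supported members (log2 -3.44). The supported Inhba counts were 19 UMIs in 158 male cells and 18 UMIs in 11 female cells. The macrophage markers moved with these genes of the female direction: their median log2 ratio was -1.83 over all members and -1.04 in supported members, against -0.05 and -0.07 over all genes compared. In other cells Inhba was at -1.51. The part of the macrophage markers in the ratios was not tested.

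**Figure D3:**
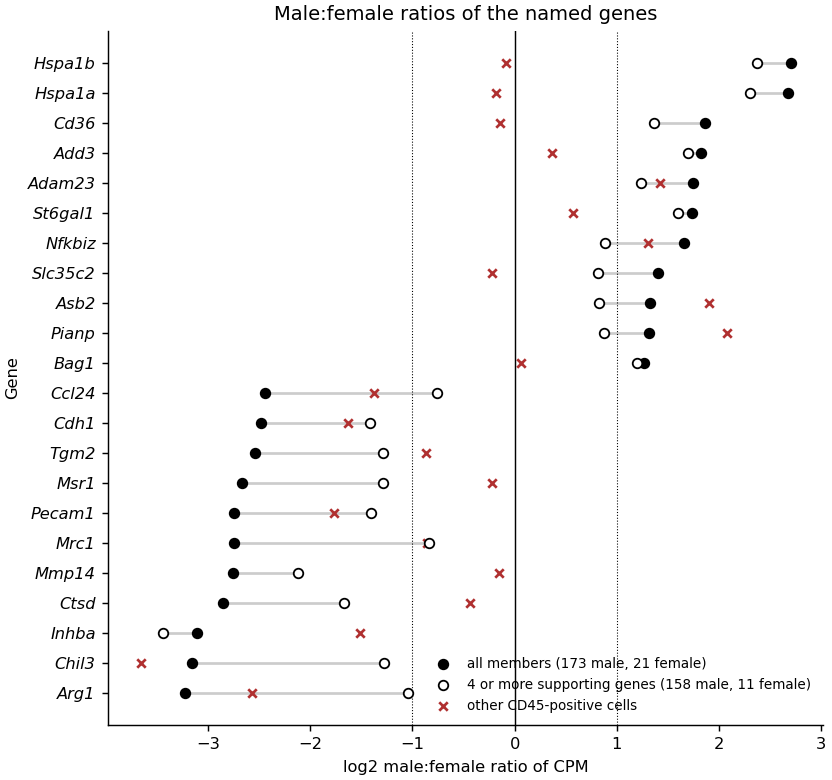
log2 male:female ratio of CPM (x axis) for 11 of the 12 genes with the largest ratio in each direction (y axis), in all members (filled), in supported members (open) and in other CD45-positive cells (crosses). Dotted lines mark 2-fold; genes higher in female cDC1 mostly move toward 0 in supported members, with Arg1 at -3.23 in all and -1.04 in supported members, and Hspa1b at 2.70 and 2.37.

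Toward male cDC1 the largest ratios were those of the inducible heat shock genes Hspa1b and Hspa1a. Hspa1b had 840 UMIs in male and 16 UMIs in female cDC1, or 469.7 and 72.2 CPM, a log2 ratio of 2.70, and 2.37 in supported members. Hspa1a had 464 and 9 UMIs, a log2 ratio of 2.68, and 2.30 in supported members. Hspa1b was detected in 83 male and 6 female members, the highest male cell had 132 UMIs and the highest female cell 7 UMIs, and the median cell had 0 in both. The genes are near-identical copies, so reads may be split between them. In other cells Hspa1b was at 199 CPM for the male and 211 CPM for the female library. Such lists were compared with no CPM minimum, and 9.76% of 7411 genes were at least 2-fold higher in male and 9.27% in female cDC1. Of 12 genes of the dissociation and stress list, which holds both, 2 were at least 2-fold higher in male cDC1 and 3 in female cDC1, with a list median of -0.07. The 3 were Fosb, at -1.20, Egr1, at -1.05, and Hmox1, at -2.03.

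Cd36, a scavenger receptor for lipids and dead cells, was the third gene. It had 1086 UMIs in male and 37 UMIs in female cDC1, or 607 and 167 CPM, 3.64-fold (2.62 to 5.19) over all members and 2.56-fold (1.84 to 3.68) in supported members. It was detected in 146 of 173 male and 10 of 21 female members. After thinning to 1000 UMIs per cell Cd36 was detected in 39.2% of male members (31.8 to 46.9) and in 1 of 21 female members, 4.76% (0.120 to 23.8). In the other gates the level was lower: Cd36 was at 52.6 and 39.8 CPM in cDC2 and at 59.1 and 73.6 CPM in macrophages of the male and female libraries. St6gal1, a sialyltransferase, was at 181 CPM in male and 54.1 CPM in female cDC1 (log2 1.74, and 1.59 in supported members). Add3, which encodes a membrane skeleton protein, was at 1.83 and 1.70 in all and in supported members, and Bag1, a co-chaperone of heat shock proteins, at 1.27 and 1.19. Nfkbiz, Slc35c2, Asb2 and Pianp were past 2-fold in all members but not in supported members, where they were at 0.89, 0.81, 0.82 and 0.87, and Adam23 was at 1.75 and 1.23. In other cells, Asb2, Pianp, Adam23 and Nfkbiz were also past 2-fold toward the male library, at 1.90, 2.08, 1.42 and 1.30.

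Over the 8 supporting genes the median log2 male:female ratio was 0.58 in all members, with 0 past 2-fold. In supported members, which were chosen by these genes, no comparison of them is made. Xcr1 and Clec9a, the genes of the rule, were at 573 and 363 CPM in male cDC1 and at 460.2 and 275 CPM in female cDC1. The deepest female cell held 54 of the 102 female Xcr1 UMIs, and without it female cDC1 were at 251 CPM. Of 13 further cDC1 genes, 3 were at least 2-fold higher in male cDC1 (background 9.76%) and 0 in female cDC1 (background 9.27%). These 3 were below 100 CPM. Tlr3 had 153 UMIs in 56 male members and 4 UMIs in 3 female members, 4.74-fold by level (1.81 to 17.6). Tlr11, a sensor of microbial profilin in mice, had 85 UMIs in male and 2 UMIs in female members, 5.27-fold (1.41 to 44.2). Cd8a had 87 and 5 UMIs. The female counts are small, and the lower ends of these intervals and that of Cd8a, 0.890, are under 2-fold.

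Genes of antigen presentation had medians near 0. For the 16 MHC class I pathway genes the median log2 male:female ratio was 0.06 over all members and -0.05 in supported members, and the 13 class II genes 0.17 and -0.07, with 0 class II genes past 2-fold in either direction. Psme2, a proteasome activator subunit, was the 1 class I gene past 2-fold, with 116 UMIs in male and 3 UMIs in female cDC1. Steroid receptor transcripts were scarce in these cells: the oestrogen receptor gene Esr1 had 4 UMIs in male and 0 UMIs in female members, and Esr2 and Pgr had 0 in both. The glucocorticoid receptor gene Nr3c1 had 123 and 12 UMIs, or 68.8 and 54.1 CPM.

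The male members were numerous enough to compare among themselves. Ccr7, which guides migration to lymph nodes, and Fscn1, an actin-bundling protein of mature dendritic cells, reached together 4 or more UMIs in 24 of 173 male members, 13.9% (9.10 to 19.9), and in 2 of 21 female members, 9.52% (1.17 to 30.4). In 126 male and 15 female members neither gene had a UMI. Fscn1 was detected in 2 of the 24 male cells, which held 289 UMIs of it, and in the other 22 the limit was reached by Ccr7 alone. Of these 2 cells, 1 had 2 Ccr7 UMIs and 210 Fscn1 UMIs. All 24 cells are called Ccr7-high. Near the limit were 6 male members with 2 or 3 UMIs and 7 with 4 or 5. The 24 cells were set against the 51 male members that were neither Ccr7-high nor past a limit of 5 proliferation UMIs, without Ccr7, Fscn1 and the genes of the rule. Of the 24 cells, 22 had at least 4 supporting genes, as did 41 of the 51. Since 12 of the 24 were past the proliferation limit and none of the 51 were, the proliferation genes differ by construction: all 12 compared were at least 2-fold higher.

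Genes of several lists were past 2-fold in Ccr7-high cells. Of 1856 genes compared, 198 (10.7%) were at least 2-fold higher in Ccr7-high cells and 101 (5.44%) at least 2-fold lower. Lists were counted over genes with at least 20 UMIs and no CPM minimum, for which 8.67% of 4245 genes were higher and 9% lower. All 11 measured genes of the mature dendritic cell list were at least 2-fold higher, though several rested on few of the 24 cells. Cacnb3 was in 5 of them, Cd200 in 6 and Socs2 in 8, while Tmem123 was in 23, Marcksl1 in 18 and Relb in 16. One cell held 42.6% of the Ccl22 UMIs of the 24 cells, and Ccl22 was in 15 of them. Il12b, the p40 subunit of IL-12, had 321 UMIs in the 24 Ccr7-high cells and 3 UMIs in the 51 others, 157-fold by level (53.2 to 764). Male Il12b was in 20 members, 8 of them Ccr7-high, which held 90.4% of its UMIs, and 1 cell alone held 159. That same cell held 290 Ccl22 UMIs and 79 Fscn1 UMIs, and had 0 UMIs of Cadm1, Wdfy4, Naaa and Itgae. The other male Ccr7-high cell with Fscn1 had 77 Ccl22 UMIs and 0 UMIs of Wdfy4, Naaa and Itgae. Each of this pair of cells had 4 supporting genes. Both female members with Il12b, with 29 and 48 UMIs, were Ccr7-high. The partner subunit Il12a had 1 UMI in male and 3 UMIs in female members. Ccl22, a chemokine for Ccr4, was 47.5-fold higher (30.8 to 77.3), Ccl5 24.9-fold (10.3 to 78.7), Cd40 5.01-fold (2.58 to 10.5), Cd274 (PD-L1) 3.75-fold (2.67 to 5.36) and Cxcl9 2.58-fold (2.17 to 3.08). Ccl5 was in 11 of the 24 cells, and 1 cell held 47.1% of its 85 UMIs there. Of 11 NF-kB target genes, 9 were at least 2-fold higher (background 8.67%).

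Of 11 further cDC1 genes, 6 were at least 2-fold lower in Ccr7-high cells (background 9%) and 0 higher (background 8.67%). Tlr3 had 1 UMI in Ccr7-high cells against 30 UMIs in the others, 0.0488-fold (0.00120 to 0.294). Naaa was 0.484-fold, Ppt1 0.436-fold, Itgae 0.519-fold and Wdfy4 0.549-fold. Irf8 was 0.709-fold (0.584 to 0.857), and the class II genes H2-Ab1 and Cd74 were at 0.892-fold and 0.875-fold. Id2, a factor needed for conventional dendritic cells, was 2.13-fold higher (1.81 to 2.51). Of 12 dissociation and stress genes, 7 were at least 2-fold lower in Ccr7-high cells, with a median log2 ratio of -1.21. All 4 plasmacytoid markers compared were also at least 2-fold lower, at a median of -3.77, and 0 of the 24 cells but 3 of the 51 others had at least 5 UMIs of those markers. The part of these 3 cells in the ratios was not tested.

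**Figure D4:**
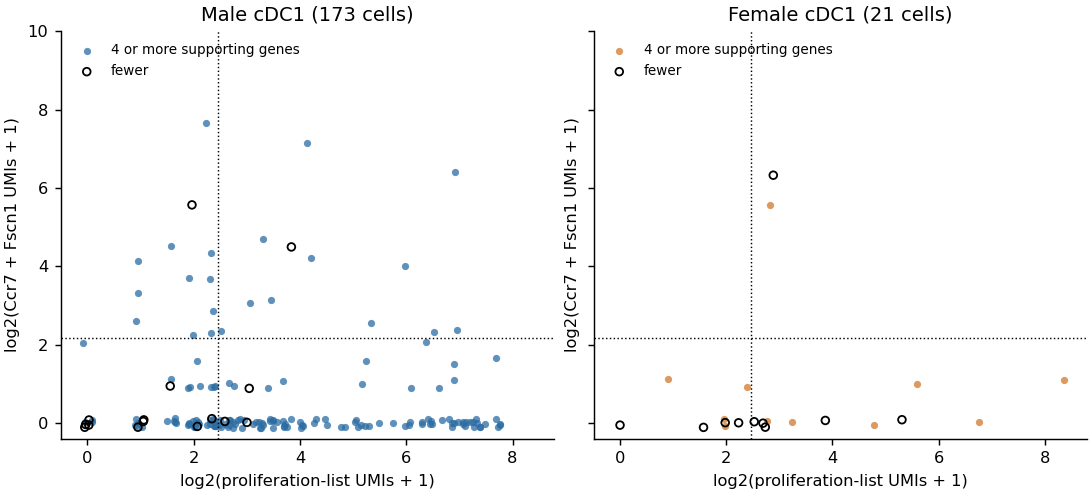
Each point is 1 cDC1, by log2(UMIs of 17 proliferation genes + 1) on the x axis and log2(Ccr7 and Fscn1 UMIs + 1) on the y axis, with a small jitter, male (left) and female (right). Open points have fewer than 4 supporting genes, and dotted lines mark 5 proliferation UMIs and 4 Ccr7 and Fscn1 UMIs: 24 male and 2 female cells lie above, 110 male and 13 female cells to the right.

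Proliferation transcripts were widespread, with cells close to the limit on either side. At least 5 UMIs of 17 proliferation genes were found in 110 of 173 male members, 63.6% (55.9 to 70.8), and in 13 of 21 female members, 61.9% (38.4 to 81.9). In other cells, which were shallower, the share was 45.9% for the male library and 43.3% for the female. The male members had a median of 8 and a highest value of 214 such UMIs, with 36 cells at 3 or 4 UMIs and 18 at 5 or 6 around the limit. After thinning to 1000 UMIs per cell, at least 1 such UMI was found in 60.2% of male members (52.5 to 67.6) and 66.7% of female members (43.0 to 85.4), against 55.5% of other male and 49.2% of other female cells. The limit cuts through these values, and no cycling was read from it. Whether the cells with the highest values form a separate group was not tested.

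The 98 male members past this limit and not Ccr7-high were set against the same 51 members. Of 1790 genes compared, without the 17 proliferation genes, 67 (3.74%) were at least 2-fold higher and 18 (1.01%) at least 2-fold lower. With the filter of the lists the shares were 11.3% higher and 3.52% lower. The 8 supporting genes had a median log2 ratio of -0.05 with 0 past 2-fold, and the 13 further cDC1 genes -0.08 with 1 higher. Markers of other cells also differed: 3 of 3 tumour and stroma genes were at least 2-fold higher, with a median of 3.97, and 3 of 3 plasmacytoid genes at least 2-fold lower, with a median of -2.73. Among all male members, 1 had at least 5 UMIs of the tumour and stroma markers. Among the genes that differed, Tnf, the inflammatory cytokine, had 15 UMIs in the members past the limit against 40 UMIs in the others, 0.125-fold by level (0.0640 to 0.231). In the others Tnf was in 9 of 51 cells, and 1 cell held 40% of its UMIs. Nfil3 was 0.439-fold (0.342 to 0.563) and Cxcl2, a neutrophil chemokine, 0.470-fold (0.392 to 0.565). Ccl4 was 4.11-fold higher (2.50 to 7.19) and Id2 1.63-fold higher (1.43 to 1.88). The median depth was 11664.5 UMIs in the members past the limit and 8207 UMIs in the others. The part of depth and of the markers of other cells in the ratios was not tested.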

How the data were processed

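Per the labels' protocols, tumours were digested with collagenases, DNase and dispase, live cells were sorted on CD45, and UMI libraries were made with the BD Rhapsody whole-transcriptome workflow. CASAVA 1.8, UMI-tools, Seurat and the build mm10 are named in the submitters' processing notes, and the aligner is not stated there. The files the authors deposited are whole-number UMI counts, 1 matrix per library, with no scaling.

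From these counts, kept cells, gates and summed CPM were computed in Python 3.11.15 (numpy 2.4.6, scipy 1.17.1, pandas 2.3.3). The 4 libraries had 22115 barcodes and between 37705608 and 62273035 UMIs each. Shares carry exact Clopper-Pearson intervals, CPM exact Poisson intervals and ratios exact conditional intervals, each at 95%. The female ratios rest on 221647 UMIs and are the less precise. A count of 0 was set to 3 counts in a fold. Macrophages had at least 1% C1q UMIs and 0 Cd3 UMIs. Doublets were not called; an alternative left out the 5% deepest cells. Sex-linked RNAs named in the label check, mitochondrial, ribosomal protein, haemoglobin, immunoglobulin, T cell receptor, Gm and Rik genes stayed out of the counts of genes. Named genes were the 12 largest ratios in each direction with less than 50% of UMIs in 1 cell, the 20 leading genes over other cells, and members of 33 gene lists; a few of these genes are not reported here. The members and lists were chosen with earlier results of these data known. The ratio calculation was tested on simulated data.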

Additional observations from a re-analysis of the deposited data

Results flagged for a closer look

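In the CD45-negative libraries, which no comparison used, 6 male cells and 8 female cells passed the rule for cDC1. They had 12 and 16 Xcr1 UMIs, 0 Clec9a UMIs and 0 Ptprc UMIs, at most 3 supporting genes each, and all had Krt8 and Krt18, keratins of epithelial cells. They are not counted as cDC1.

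Several listed or named genes lay on opposite sides of the other cells in the male and female libraries, a difference that was not tested. Hspa1b was above other cells in male cDC1 and below them in female cDC1, with log2 ratios of 1.24 and -1.55, and Hspa1a was at 1.14 and -1.72. Below other cells in male cDC1 and above them in female cDC1 were Prf1 at -3.67 and 3.62, Nkg7 at -3.44 and 0.62, Ly6c2 at -1.87 and 0.53, and Ccl4 at -0.67 and 0.60. In each of these 4 genes 1 female cell held 50% or more of the female UMIs. Cd274 was at -0.40 in male and 0.55 in female cDC1, and Cxcl16 at -0.19 and 0.36. Medians of lists also had opposite signs, at -3.14 in male and 1.09 in female cDC1 for 9 NK cell genes and at -0.45 and 1.10 for 16 mature dendritic cell genes.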

How the results depend on the processing

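The male:female ratio of the cDC1 share stayed above 1 under each alternative run. It was 3.13 with at least 1 Xcr1 or Clec9a UMI, 16.8 with C1q genes below 0.1% and 12.3 in supported members, an alternative added after seeing the data, and between 4.95 and 11.03 under the others. The 32 genes higher in male cDC1 became 64 with at least 1 marker UMI, 73 with C1q below 0.1%, 62 without the 5% deepest cells, 59 with cells weighted equally and 544 with no CPM minimum. The 171 genes higher in female cDC1 became 11 after thinning to 1000 UMIs, which left 46 male and 4 female cells, and 503 with no CPM minimum. The 105 genes higher in cDC1 than in other cells became 63 with at least 1 marker UMI, 37 with C1q below 1%, 183 after thinning and 576 with no CPM minimum. The share of male members past the proliferation limit, 63.6%, became 19.6% after thinning and 45.7% with at least 10 UMIs. With C1q below 0.1% Cdh1 turned to 0.68 and Mmp14 to 0.73 (log2 male:female). The tumour and stroma list turned to a median of -2.33 with at least 1 marker UMI, and the plasmacytoid list to 0.47 with at least 3. The cause was not tested. Of the other values, 521 for genes and lists kept their direction and size and 115 moved without turning. No paired analysis was possible because each group has 1 library. The 21 female members and their 221647 UMIs limit each male:female ratio.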
